A study of Mus musculus with 6 samples.

Results

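The miR-23, miR-27 and miR-24 genes lie in 2 genomic clusters of the mouse, and 10 of the 685 mature miRNAs listed in each library came from them. Cluster a holds the precursors Mir23a, Mir27a and Mir24-2 and contributed 4 entries, mmu-miR-23a-3p, mmu-miR-27a-3p, mmu-miR-27a-5p and mmu-miR-24-2-5p. Cluster b holds Mir23b, Mir27b and Mir24-1 and contributed 5 entries, mmu-miR-23b-3p, mmu-miR-23b-5p, mmu-miR-27b-3p, mmu-miR-27b-5p and mmu-miR-24-1-5p. The remaining entry, mmu-miR-24-3p, is made by both Mir24-1 and Mir24-2 and was assigned to neither; the mouse prefix mmu is left out from here on. The members were chosen by name and genomic cluster, with earlier results of these data known, and miR-23a-5p was not analysed here. All libraries came from N2a, a neuroblastoma line of the mouse, after 96 h of 10 µM retinoic acid, which gives these cells a neuron-like form. The RSL3 libraries (n = 3) were from such cells exposed to 5 µM RSL3, an inhibitor of the lipid peroxide reductase GPX4 that triggers ferroptosis, for 24 h, and the DMSO libraries (n = 3) were from retinoic acid-treated cells given DMSO, its solvent. Both groups therefore carry the retinoic acid treatment, and undifferentiated cells were not analysed here.

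In a miRNA cluster, the precursors are cut from a shared primary transcript, and each hairpin gives a 5p and a 3p arm of which the guide is loaded into Argonaute and the passenger is mostly discarded. The guide finds its target mRNAs mainly through its seed, the bases next to its 5′ end. In these clusters the 3p arms are the guides. In mouse neurons miR-23 and miR-27 are known to repress Apaf1, a component of the apoptosome, miR-23 is known to repress glutaminase in human cancer cells, miR-27 is known to repress the adipogenic factor PPARγ, and miR-24 is known to repress cell-cycle genes such as E2F2 in human cells. Targets were not measured in these small RNA libraries.

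The RefSeq miRNA table for GRCm38.p6 held a mature sequence for 9 of the 10 members, all but miR-23b-3p. They are shown because the clusters can be told apart in sequencing only where their products differ. Sequences run 5′ to 3′, and the capitals mark the seed, bases 2 to 8.
miR-23a-3p: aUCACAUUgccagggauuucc
miR-27a-3p: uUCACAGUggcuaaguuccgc
miR-27b-3p: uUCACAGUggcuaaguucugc
miR-24-3p: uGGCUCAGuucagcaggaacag
miR-27a-5p: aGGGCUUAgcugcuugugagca
miR-27b-5p: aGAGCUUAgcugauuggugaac
miR-24-2-5p: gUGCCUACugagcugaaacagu
miR-24-1-5p: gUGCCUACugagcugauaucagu
miR-23b-5p: gGGUUCCUggcaugcugauuu
The guides miR-27a-3p and miR-27b-3p share the seed UCACAGU and differ by 1 base of 21, C19U, with positions counted from 1 at the 5′ end and the base of cluster a written before that of cluster b. Compared position by position without gaps, their passengers differ at 8 of 22 positions, 1 of them in the seed (G3A). The passengers miR-24-2-5p (22 nt) and miR-24-1-5p (23 nt) share the seed UGCCUAC. On the same count they differ at 5 of the 22 positions compared, all outside the seed. With no gap allowed, a shift by 1 base counts as several differences. No other listed entry with a sequence in the table had the seed of any of these members. How the authors assigned reads that match several miRNAs is not given in the sources used here, so the split between miR-27a-3p and miR-27b-3p in particular is uncertain. Among the 9 members with at least 50 reads in every library, none had reads within 1% of those of another entry in all 6 libraries. This check finds only entries of nearly equal level, so it cannot show how reads were split between miR-27a-3p and miR-27b-3p.

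The clusters differ in their surroundings. Cluster a spans 404 bases of the plus strand of chromosome 8 in GRCm38.p6, with Mir23a at 84208518 to 84208592, Mir27a at 84208672 to 84208758 and Mir24-2 at 84208815 to 84208921. In GENCODE M21, Mir23a and Mir27a overlap no other gene, and Mir24-2 lies in an exon of the long noncoding RNA Gm26532. Cluster b spans 792 bases of the plus strand of chromosome 13, with Mir23b at 63300484 to 63300557, Mir27b at 63300712 to 63300784 and Mir24-1 at 63301208 to 63301275. All 3 lie within the protein-coding gene 2010111I01Rik on the same strand and in an intron of Fancc on the opposite strand. Mir23b is intronic in all 9 overlapping transcripts of the plus strand, Mir27b is in an exon of 1 of 9, a nonsense-mediated decay transcript, and Mir24-1 is in an exon of 4 of 11.

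Read numbers could be recovered from the deposited values, and they came to 3406276 to 4989380 miRNA reads per RSL3 library and 4306460 to 6058006 per DMSO library. Levels are given in the authors' TMM-scaled CPM, where each read counted for 0.157 to 0.314 CPM. Nothing in the labels says that the replicates were grown as separate cultures. What the p-values weigh is thus the variation from library to library, possibly technical only. The 10 entries of the neuron-enriched list were all detected. Listed markers of other cell types were detected as well, so detection alone does not check the labelled cell type. The neuron-enriched entries summed to 185112 to 232675 CPM in RSL3 and 217589 to 293398 CPM in DMSO libraries. Most of this was miR-7a-5p, at a mean of 181728 CPM in RSL3 and 225023 CPM in DMSO libraries. The next highest was miR-218-5p, at 15095 and 18269 CPM, and the lowest was miR-137-3p, at 64.4 and 75.8 CPM. The sum thus says little about the other entries. In RNA from a whole culture, fewer cells of a type and less RNA per cell cannot be told apart.

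**Figure D1:**
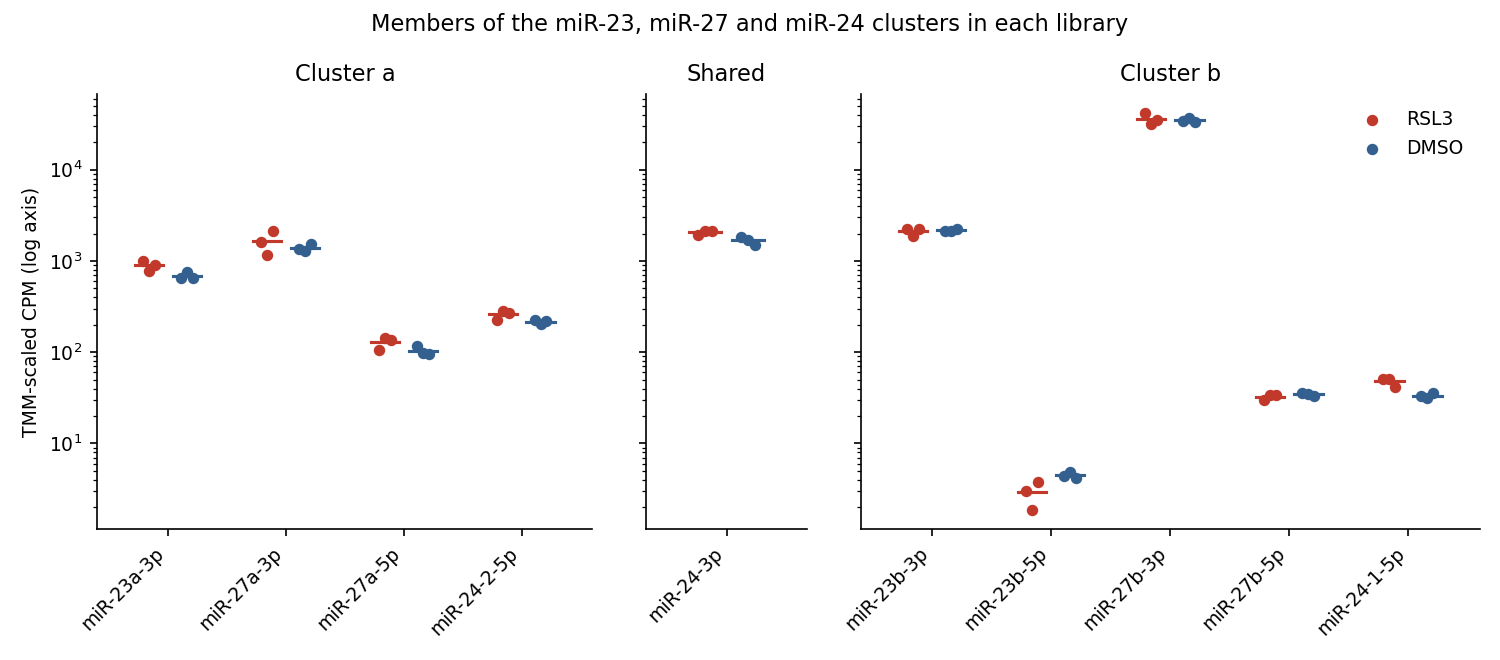
Level of each member in each library, as TMM-scaled CPM on a log axis, with cluster a at left, the shared miR-24-3p in the middle and cluster b at right. Points are the 3 RSL3 libraries (red) and the 3 DMSO libraries (blue) and lines are group means; miR-27b-3p averages 36291 CPM in RSL3 and 34788 CPM in DMSO and miR-23b-5p stays under 5 CPM.

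Together the members held 3.61% to 4.88% of the listed signal in RSL3 libraries and 3.83% to 4.50% in DMSO libraries. Most of this was a single guide of cluster b, miR-27b-3p, which was sixth of all 685 entries by mean level and made up 81.8% to 85.2% of the members' signal in RSL3 and 84.1% to 85.4% in DMSO libraries. The order below it was miR-23b-3p, miR-24-3p and miR-27a-3p, whose ranges over the 6 libraries overlapped, and then miR-23a-3p, miR-24-2-5p and miR-27a-5p, each separated from the next in all libraries. The passengers miR-27b-5p and miR-24-1-5p overlapped, and miR-23b-5p was the lowest, with 6 to 28 reads per library. These are levels of different RNAs, and the ligation and amplification of a small RNA depend on its sequence.

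The guides of cluster a were lower than those of cluster b, and the passengers of cluster a were higher than those of cluster b, in all 6 libraries. The guide miR-27a-3p made up 3.52% to 5.66% of summed miR-27-3p in RSL3 and 3.42% to 4.42% in DMSO libraries, and miR-23a-3p made up 28.9% to 31.1% of summed miR-23-3p in RSL3 and 22.6% to 26.1% in DMSO libraries. The passenger miR-27a-5p, by contrast, made up 77.9% to 80.9% of summed miR-27-5p in RSL3 and 73.8% to 76.5% in DMSO libraries. Likewise miR-24-2-5p made up 81.6% to 86.4% of summed miR-24-5p in RSL3 and 86.2% to 87.3% in DMSO libraries. For miR-27, the measured guide and passenger levels of the same precursors thus ranked the clusters in opposite orders. The guide order rests on the uncertain split of reads between miR-27a-3p and miR-27b-3p. The passengers differ in sequence, and the effect of this on their levels was not tested.

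The arm balance puts the same miR-27 values precursor by precursor and is not separate evidence of the contrast. For miR-23 the clusters cannot be compared in this way, since miR-23a-5p was not analysed here. The 5p arm held 6.08% to 10.9% of miR-27a in RSL3 and 5.80% to 8.01% in DMSO libraries, whereas it held 0.0728% to 0.106% of miR-27b in RSL3 and 0.0955% to 0.104% in DMSO libraries. Ranked by the mean log2 ratio of 5p to 3p from the lowest among 184 precursors with both arms tested, miR-27b was at place 2 (-10.0) and miR-23b at place 5 (-8.87). In the same ranking miR-27a stood at place 36 (-3.68), against a median of 0.12 over all 184. The miR-24 ratios, at -5.51 for miR-24-1 and -2.97 for miR-24-2, both use the pooled miR-24-3p and so overstate the 3p share of each. They differ from each other only through their passengers. The 2 miR-24 passengers together held 12.7% to 13.7% of all miR-24 signal in RSL3 and 12% to 14.6% in DMSO libraries.

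**Figure D2:**
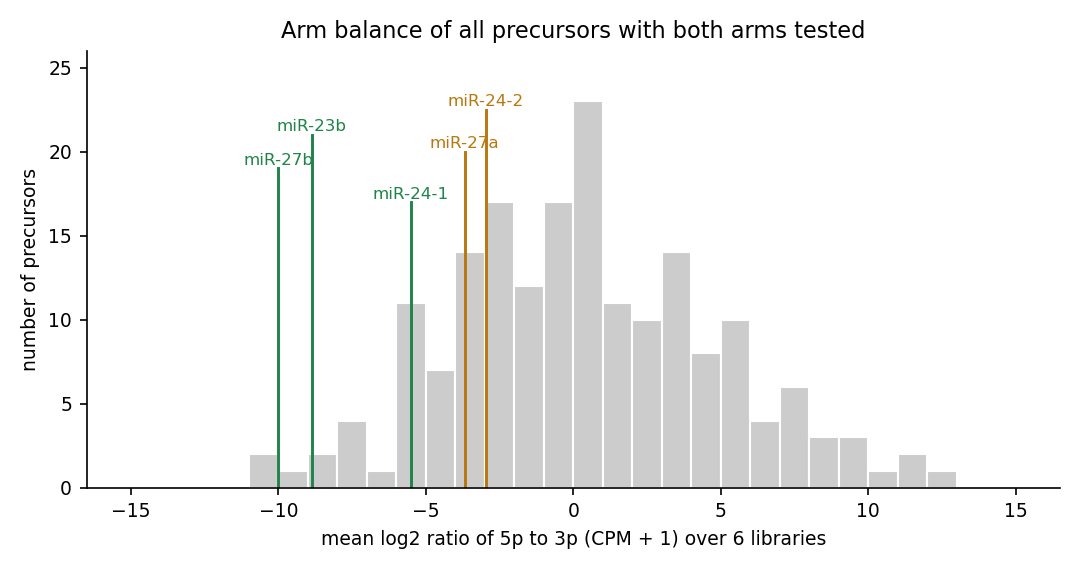
Number of precursors (bars) by mean log2 ratio of 5p to 3p over the 6 libraries, for the 184 precursors with both arms tested. Lines mark the members, cluster a in ochre and cluster b in green; miR-27b at -10.0 and miR-23b at -8.87 lie at the far 3p end and miR-27a at -3.68 does not, while both miR-24 ratios use the pooled 3p arm.

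The comparison of RSL3 with DMSO asked which miRNAs differ after RSL3. Of the 10 members 0 passed at an adjusted p under 0.05 in limma over the 666 miRNAs tested, where 0.751% passed (0.601% higher and 0.15% lower), and 0 passed in edgeR, where 0.901% did. At an unadjusted p under 0.05 there were 3 members, all higher in RSL3, beside 17.3% of all miRNAs (8.86% higher). The groups did not overlap in 5 members, 4 higher and 1 lower, beside 24.3% of all miRNAs (12.3% higher and 12% lower). The members' median log2 fold change was 0.23, with 7 positive and 3 negative, against a median of 0.0013 and 50.2% positive over all miRNAs tested. All 10 passed the filter on low values.

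**Figure D3:**
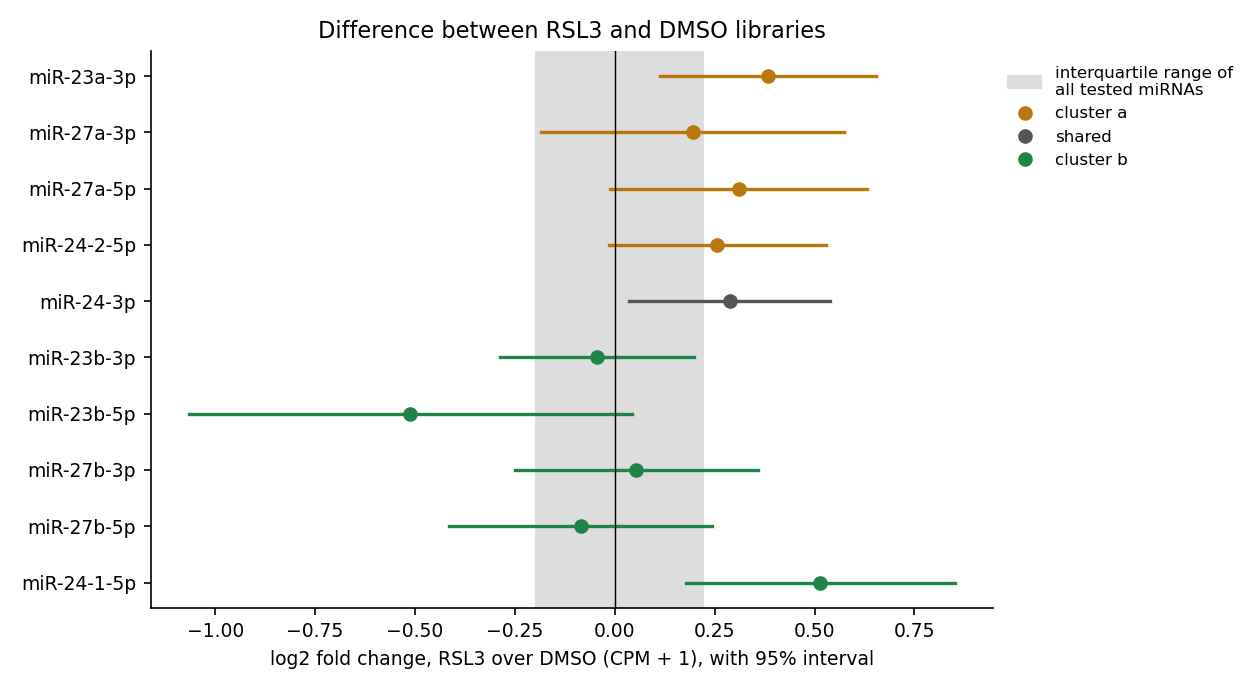
Log2 fold change of each member, RSL3 over DMSO, on the log2(CPM + 1) scale, with the 95% interval of limma (3 libraries a group). The grey band is the interquartile range of all 666 tested miRNAs, -0.20 to 0.22. The points of the 4 members of cluster a and of miR-24-3p lie right of 0. Of cluster b, miR-24-1-5p and miR-27b-3p lie right of 0 and miR-23b-3p, miR-23b-5p and miR-27b-5p left. Only the intervals of miR-23a-3p, miR-24-3p and miR-24-1-5p exclude 0, before adjustment.

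Among the guides, miR-23a-3p of cluster a had the largest difference. It was at 1009.5, 779 and 901 CPM in RSL3 libraries 1 to 3, against 654, 755 and 646 CPM in DMSO libraries 1 to 3. All RSL3 libraries lay above all DMSO libraries, although RSL3 library 2 exceeded DMSO library 2 only narrowly. The log2 fold change was 0.38 ± 0.12 (SE, n = 3 per group), with a limma p of 0.0089 and an adjusted p of 0.11. Without RSL3 library 2 its adjusted p was 0.0497 (log2 fold change 0.48), the only setting in which this miRNA passed.

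Its counterpart miR-23b-3p was at 2235, 1869 and 2216 CPM in RSL3 and 2137, 2141 and 2214 CPM in DMSO libraries. The groups overlapped, and RSL3 library 2 was the lowest of the 6. The log2 fold change was -0.04 (limma adjusted p = 0.86), with a 95% interval of -0.29 to 0.20, and it was positive under quantile normalization and without RSL3 library 2.

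The miR-27 guides spread more between RSL3 libraries than between DMSO libraries. The guide miR-27a-3p was at 1617, 1171 and 2116 CPM in RSL3 and 1338, 1298 and 1539 CPM in DMSO libraries. RSL3 library 2 was the lowest and RSL3 library 3 the highest of the 6. Its log2 fold change was 0.19, with a 95% interval of -0.18 to 0.57 (limma adjusted p = 0.60), and it came to -0.01 without RSL3 library 3 and 0.41 without RSL3 library 2.

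The most abundant member, miR-27b-3p, was at 41529.7, 32075 and 35269 CPM in RSL3 and 34423, 36688 and 33253 CPM in DMSO libraries. RSL3 library 1 was the highest and RSL3 library 2 the lowest. The log2 fold change of 0.05 had a 95% interval of -0.25 to 0.36 (limma adjusted p = 0.86), and it was negative under quantile normalization and without RSL3 library 1.

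The shared guide miR-24-3p was at 1910.0, 2135 and 2123 CPM in RSL3 and 1852, 1711 and 1502 CPM in DMSO libraries. The groups did not overlap, although RSL3 library 1 and DMSO library 1 were close. The log2 fold change was 0.29 ± 0.12 (SE), with a limma p of 0.028 and an adjusted p of 0.22. By ratio of group means miR-24-3p stood at 1.22, beside 1.22 for the summed guides of cluster a (23a-3p and 27a-3p) and 1.04 for those of cluster b (23b-3p and 27b-3p). Unlike miR-24-3p, the summed cluster a guides overlapped between groups, at 2626, 1951 and 3017 CPM in RSL3 and 1992, 2054 and 2184 CPM in DMSO libraries, with RSL3 library 2 the lowest of all. By the same ratio, the passengers of the miR-24 precursors stood at 1.45 for miR-24-1-5p of cluster b and 1.20 for miR-24-2-5p of cluster a. Which precursor supplied the miR-24-3p reads cannot be told apart.

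Among the passengers, miR-24-1-5p of cluster b had the smallest p of the 10 members. It was at 51.1, 51.5 and 41.9 CPM in RSL3 and 32.8, 31.5 and 35.6 CPM in DMSO libraries, from 142 to 209 reads per library. All RSL3 libraries lay above all DMSO libraries. The log2 fold change was 0.51 ± 0.16 (SE), a ratio of group means of 1.45, with a limma p of 0.0056 and an adjusted p of 0.095. In DESeq2, which gave an adjusted p to 382 miRNAs and called 10.5% of them, 4.97% higher, miR-24-1-5p was the only member called (adjusted p = 0.040), while edgeR gave it an adjusted p of 0.093.

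The counterpart in cluster a, miR-24-2-5p, was at 226, 286.5 and 266 CPM in RSL3 and 226, 202 and 222 CPM in DMSO libraries. The groups were only just apart, since RSL3 library 1 and DMSO library 1 round to the same value. The log2 fold change was 0.26 ± 0.13 (SE, limma adjusted p = 0.31).

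The miR-27 passengers differed from each other in sign. In cluster a, miR-27a-5p was at 106, 143 and 137 CPM in RSL3 and 116, 99.0 and 94.7 CPM in DMSO libraries. The groups overlapped through RSL3 library 1, and the log2 fold change was 0.31 ± 0.15 (SE, limma adjusted p = 0.30). In cluster b, miR-27b-5p was at 30.2, 33.9 and 33.7 CPM in RSL3 and 35.7, 35.1 and 33.1 CPM in DMSO libraries. Those groups overlapped too, with a log2 fold change of -0.09 (95% interval -0.41 to 0.24, limma adjusted p = 0.80).

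The rarest member, miR-23b-5p, was at 3.05, 1.88 and 3.81 CPM in RSL3 and 4.39, 4.88 and 4.13 CPM in DMSO libraries. All RSL3 libraries lay below all DMSO libraries, on 6 to 19 reads in RSL3 and 21 to 28 reads in DMSO. Its log2 fold change was -0.51 ± 0.26 (SE, limma adjusted p = 0.32), and DESeq2 gave it no adjusted p. The ratio of group means was 0.652. On the log2 scale the difference was -0.31 without RSL3 library 2, the lowest library, and -0.27 with a pseudocount of 5.

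Whether the clusters responded differently was tested on the ratio of cluster a to cluster b within each library. Library scaling cancels in this ratio, except through the 1 CPM added to each level. The test was fitted over 69 pairs of entries whose names differ only in a family letter or a copy number. Of these pairs 0 passed at an adjusted p under 0.05 in limma (0%), 13 had an unadjusted p under 0.05 (18.8%, and 8.7% higher) and in 17 the groups did not overlap (24.6%, and 13% higher). The 4 member pairs included 0 that passed, 2 with an unadjusted p under 0.05 and 2 without overlap, both higher. The other pairs with the smallest p were miR-301a-3p over miR-301b-3p (change of -0.58), miR-146a-5p over miR-146b-5p (0.33) and miR-30a-5p over miR-30b-5p (0.28), with limma adjusted p-values of 0.13 to 0.14.

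The ratio of miR-23a-3p to miR-23b-3p had the third smallest p of the 69. Its log2 value was -1.15, -1.26 and -1.297 in RSL3 and -1.71, -1.50 and -1.78 in DMSO libraries. All RSL3 libraries lay above all DMSO libraries, so miR-23a-3p was a larger part of miR-23-3p in each. The change was 0.43 ± 0.09 (SE), or 1.34-fold, with a limma p of 0.0057 and an adjusted p of 0.13.

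The ratio of miR-27a-5p to miR-27b-5p had the fifth smallest p, and its difference was of a like size. Its log2 value was 1.78, 2.05 and 1.99 in RSL3 and 1.68, 1.47 and 1.49 in DMSO libraries, again without overlap. The change was 0.40 ± 0.10 (SE), or 1.32-fold, with a limma p of 0.011 and an adjusted p of 0.14.

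The other pairs gave no such separation. For miR-27a-3p over miR-27b-3p the change was 0.14, with a 95% interval of -0.48 to 0.76 (limma adjusted p = 0.75), and RSL3 library 3 stood apart at -4.06 from the other RSL3 libraries at -4.68 and -4.77. Without RSL3 library 3 the change was -0.08, and without RSL3 library 2 it was 0.28. It was 0.05 without DMSO library 2, 0.23 without RSL3 library 1 and 0.25 without DMSO library 3. For miR-24-2-5p over miR-24-1-5p the change was -0.26, the opposite sign, with a 95% interval of -0.63 to 0.12 (limma adjusted p = 0.44), and without RSL3 library 1 it was -0.12. Before adjustment, the 95% interval of the difference lay above 0 for 2 of the 4 pairs and spanned 0 for the other 2.

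**Figure D4:**
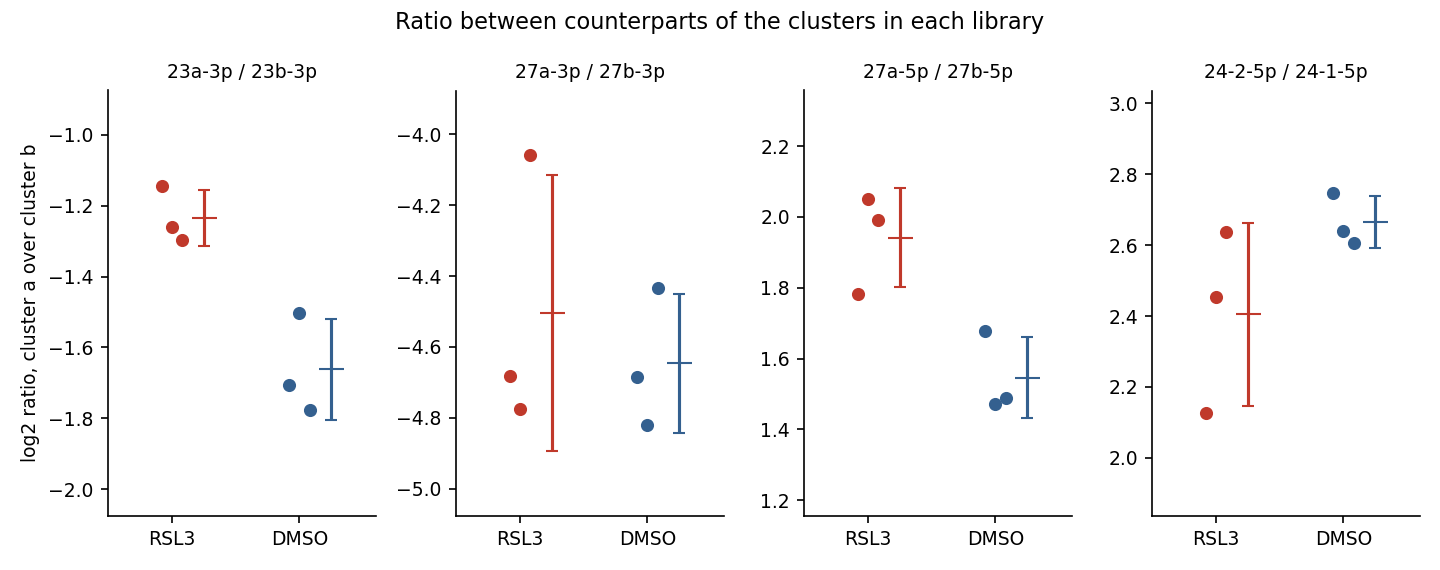
Log2 ratio of the cluster a entry to its cluster b counterpart in each library, 1 panel a pair, each axis spanning the same range around its own centre. Points are the 3 RSL3 (red) and 3 DMSO (blue) libraries, with mean ± SD beside them; the groups are apart for 23a-3p / 23b-3p and 27a-5p / 27b-5p and overlap for the other pairs.

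Within cluster b, the ratio between the passengers was singled out after its values were seen. Levels of miR-24-1-5p were 1.69, 1.52 and 1.24 times those of miR-27b-5p in RSL3, against 0.917, 0.899 and 1.08 times in DMSO libraries. The groups did not overlap, and the log2(CPM + 1) ratio was 0.60 higher in RSL3 (1.52-fold). The matching ratio in cluster a, miR-24-2-5p over miR-27a-5p, was 2.13, 2.00 and 1.94 in RSL3 and 1.94, 2.04 and 2.35 in DMSO libraries, which overlapped. Two-sided exact permutation tests of 8 such ratios, 4 between and 4 within clusters, gave p = 0.1 for the 3 ratios without overlap, the smallest that 3 against 3 libraries can give, and a Benjamini-Hochberg adjusted p of 0.27.

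The balance of the arms within a precursor did not pass for any member. Of the 184 precursors 2.72% passed in limma, all toward 3p, and 21.2% had an unadjusted p under 0.05 (13% toward 3p). The miR-23b ratio of 5p to 3p had a change of -0.47 ± 0.20 (SE), with a limma adjusted p of 0.22, and of -0.22 with a pseudocount of 5. All RSL3 libraries lay below all DMSO libraries, as in 14.7% of precursors, and 23.9% had no overlap in either direction. The changes were -0.14 for miR-27b, 0.12 for miR-27a, 0.23 for miR-24-1 and -0.03 for miR-24-2, with limma adjusted p-values of 0.60 to 0.95. The signs for miR-27a, miR-27b and miR-24-2 each turned when a single library was left out.

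Other miRNAs give the setting of these differences. The list of inflammation and hypoxia guides had 0 of 10 members called in limma, where 0.751% of all miRNAs tested were. It had 9 positive log2 fold changes and a median of 0.24, beside 50.2% positive and a median of 0.0013 over all. Its members with the smallest p were miR-146a-5p, which dampens NF-kB signals, at 444 ± 45.01 against 311 ± 50.57 CPM (SD, n = 3 per group), miR-21a-5p at 39494 ± 3760 against 32047 ± 2817 CPM and miR-155-5p at 5.86 ± 1.17 against 3.81 ± 1.296 CPM in RSL3 against DMSO libraries. DESeq2, which called 10.5% of 382 miRNAs, called miR-146a-5p higher (adjusted p = 0.023) and no other entry of this list. The retinoid and differentiation guides had 0 of 12 called in limma, with 9 positive values and a median of 0.13. Of these, miR-125b-5p (log2 fold change 0.35), let-7c-5p (-0.35) and miR-9-5p (0.39) had the smallest p. The guide miR-128-3p, listed for the likeness of its seed to that of miR-27, was at 2019 ± 321 CPM in RSL3 and 2156 ± 261 CPM in DMSO libraries (limma adjusted p = 0.73).

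Markers of other cell types in which these clusters are also made passed in limma in 0 cases, beside 0.751% of all miRNAs tested. DESeq2, which called 10.5% of 382 miRNAs, called miR-126a-3p higher (adjusted p = 0.040) and miR-145a-5p lower (adjusted p = 0.014). It gave no adjusted p to the low markers miR-142a-5p, miR-150-5p, miR-219a-5p, miR-338-3p, miR-133a-3p and miR-206-3p. The endothelial entries miR-126a-3p and miR-126a-5p summed to 781 to 907 CPM in RSL3 and 642 to 701 CPM in DMSO libraries, without overlap. Of the pair miR-126a-3p had a log2 fold change of 0.38 and miR-126a-5p one of -0.47 (limma adjusted p-values of 0.095 and 0.17), and their part in the members' differences was not tested. The 5 smooth muscle and fibroblast entries summed to 36143 to 37361 CPM in RSL3 and 35471 to 38673 CPM in DMSO libraries. Nearly all of this was miR-143-3p, whose log2 fold change of -0.0011 was close to none. The log2 fold changes of the other entries were negative. In this list miR-145a-5p, a smooth muscle miRNA, was at 666 ± 78.4 CPM in RSL3 and 952 ± 93.0 CPM in DMSO libraries (SD, n = 3 per group), a log2 fold change of -0.52 with a limma adjusted p of 0.063, smaller than that of any member. The blood list had 4 of its 7 entries listed, at 99.1 to 162 against 91.2 to 120.5 CPM, the 3 glial entries were at 143 to 190 against 137 to 178 CPM, and the 3 muscle entries at 68.8 to 129 against 105 to 193 CPM, each RSL3 against DMSO. No listed marker was at 0 in all libraries, though 3 blood entries were not analysed here.

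Some other miRNAs were high or low in the same libraries as the guides. Among 408 other miRNAs with a mean of at least 10 CPM, those most like the summed cluster a guides over the 6 libraries were miR-143-5p (Pearson's r = 0.96), miR-465a-5p (0.92) and miR-542-3p (0.90). Most like the summed cluster b guides were miR-532-3p (0.95), miR-3473a (0.95) and miR-107-3p (0.94). These r are descriptions over 6 points that share library depth and scaling. They are the highest of 408, and picking the highest over so few points favours large values. Between guides, r within clusters was 0.48 for 23a-3p with 27a-3p and 0.59 for 23b-3p with 27b-3p, while across clusters it was 0.70 both for 23a-3p with 27b-3p and for 27a-3p with 23b-3p. The cluster a passengers miR-27a-5p and miR-24-2-5p had r = 0.92, but miR-27a-5p had the same r with the shared miR-24-3p. Across clusters, miR-24-2-5p had r = 0.70 with miR-24-1-5p. Between arms of the same hairpin, r was 0.08 for miR-27a and -0.64 for miR-27b. In cluster b, miR-24-1-5p had r = -0.70 with miR-27b-5p and r = -0.89 with miR-23b-5p. The latter rests on 6 to 28 reads of miR-23b-5p per library. It also includes the difference between groups, which were apart in opposite directions for these entries.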

How the data were processed

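Small RNA of 15 to 35 nt was sequenced for 50 cycles from total RNA, per the labels' protocols. Cutadapt, Bowtie, edgeR and build GRCm38 are named in the submitters' processing notes, and how they were run is not given in the sources used here. In each library the authors deposited a signal per mature miRNA named CPM, with sums of 949375 to 1068892 per library. Dividing by a library's smallest step gave whole reads (100% of values, within 0.01 reads), and the recovered reads times their TMM factors (0.936 to 1.05) gave the divisors, so the deposited signal is TMM-scaled CPM, although plain CPM had been assumed in the planned design.

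Members and lists were chosen with earlier results of these data known. Using R 4.3.3, limma 3.58.1 was run on log2(CPM + 1), with a variance trend and Benjamini-Hochberg adjustment at 0.05, for miRNAs reaching 1 CPM in at least 3 libraries (19 of 685 were not tested). Fold changes on this scale understate the change of low miRNAs. The same model was fitted to log2 ratios of 69 paralog pairs (a over b, miR-24-2 over miR-24-1) and 184 precursor arms. The fits were tested on simulated data. Alternatives were edgeR 4.0.16 and DESeq2 1.42.0 on recovered reads, other pseudocounts, filters, scalings and variance models, a replicate block and leaving out each library. A further alternative, chosen after seeing the data, left out 4 pairs that share reads. Named were all members, the 3 miRNAs most like each cluster's guides, 3 other paralog pairs and up to 3 miRNAs per list, the last 2 by smallest p. No replicate was a copy of another of its group, since chi-square over its degrees of freedom between them was at least 73.0.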

Additional observations from a re-analysis of the deposited data

How the results depend on the processing

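Of the members, 0 passed as reported. DESeq2 called 1 (miR-24-1-5p, log2 fold change 0.53), and leaving out single libraries gave 0 to 1, the 1 being miR-23a-3p without RSL3 library 2 (0.29 to 0.48 over the libraries left out). Over the libraries left out, miR-27a-3p ran from -0.012 to 0.41, the miR-27a-3p/miR-27b-3p change from -0.082 to 0.28, miR-23b-5p from -0.68 to -0.31 and the arm ratios from -0.19 to 0.27 for miR-27a, -0.25 to 0.014 for miR-27b and -0.093 to 0.069 for miR-24-2. For miR-23b-3p the range was -0.089 to 0.040 and for miR-27b-3p -0.047 to 0.14. Signs turned, with no call, for miR-23b-3p (0.040 without RSL3 library 2, 0.019 with quantile normalization) and miR-27b-3p (-0.047 without RSL3 library 1, -0.063 with quantile normalization). They also turned for the arm ratios of miR-27a (-0.19 without RSL3 library 2, -0.019 without DMSO library 3), miR-27b (0.014 without RSL3 library 1) and miR-24-2 (0.011 without RSL3 library 1, 0.069 without DMSO library 3). The member pairs and member arm ratios had 0 calls in every setting run, and leaving out the 4 pairs that share reads gave adjusted p-values of 0.18 for both 23a-3p/23b-3p and 27a-5p/27b-5p.

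For the background, miRNAs called higher (4 as reported) numbered 19 with DESeq2, 1 with no trend in the variance, and 1 to 14 over the single libraries omitted. Those called lower (1 as reported) numbered 21 with DESeq2, 2 with edgeR, 3 at a 10 CPM filter, 0 with no trend in the variance, 0 after centring on the median, 12 when rescaled without the 5 most abundant, and 0 to 12 over the single libraries omitted. Omitting RSL3 library 1 gave 8 higher and 12 lower, RSL3 library 2 gave 14 and 5, RSL3 library 3 gave 2 and 0, DMSO library 1 gave 2 and 1, DMSO library 2 gave 1 and 0, and DMSO library 3 gave 4 and 0. Arm ratios toward 3p (5 as reported) numbered 2 at pseudocount 0.5, 9 at pseudocount 5 and 0 to 6 over the single libraries omitted, 0 without DMSO library 2. Those toward 5p (0 as reported) numbered 2 at pseudocount 5, 1 at a 10 CPM filter and 0 to 1 over the single libraries omitted. The cause was not tested.

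Same-numbered libraries did not pair (r of their deviations -0.35, -0.33 and -0.19). With the replicate block 1 miRNA was higher and 0 lower, 2 arm ratios were lower and 0 members passed. For miR-23b-5p, at 6 to 28 reads, depth limits any statement. A filter at 10 CPM left it and the miR-23b arm ratio untested.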
